A study of Mus musculus and Homo sapiens with 10 samples.

Results

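DNA double-strand breaks were mapped by in-suspension BLISS, which ligates an adapter to the blunted ends of breaks before DNA is extracted and reads the sequence next to each end. The 6 genes described here are direct targets of bone morphogenetic protein (BMP) signalling: Id1, Id2, Id3, Id4, Smad6 and Smad7. They were taken by symbol from the RefSeq annotation of the mouse genome (GRCm38.p6), each as its gene body with 2 kb on each side, and are 6 of 21887 protein-coding genes whose break ends were counted in the same way. The samples were enterocytes of the mouse jejunum, which take up nutrients on the villus, separated by Cd73, an ectonucleotidase of the cell surface encoded by Nt5e, into a negative, a mid and a high gate with 2 libraries each, labelled M1 and M2. The series also holds libraries of human TK6 cells, which are not used here. The sources used here do not give strain, age, sex or treatment of the mice, nor what the letter M stands for. All p-values therefore speak of the spread from library to library, which may be technical.

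BMP ligands bind pairs of serine/threonine kinase receptors, which phosphorylate Smad1, Smad5 and Smad9. These join Smad4, enter the nucleus and switch on target genes, among which the Id genes and the inhibitory Smads respond most directly. Id proteins bind basic helix-loop-helix transcription factors and keep them off DNA, while Smad6 and Smad7 feed back on the receptors and on other Smads. In the intestine BMP signals come largely from the mesenchyme, are held down around the crypt by secreted antagonists, and act on the villus, where enterocytes change their gene expression as they move towards the tip. A break end is a property of DNA and not a measure of expression of the gene it lies in.

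The libraries held between 1272771 (Cd73 high M2) and 13043514 (Cd73 negative M1) break ends on chromosomes 1 to 19, X and Y, so the Cd73 high gate was the shallowest. Because depth followed the gate, depth and gate cannot be told apart for any measure that depends on depth, and levels are given as break ends per 1000000 of the library (EPM). Cell numbers are not stated, so EPM are shares of a library and not breaks per cell. Every cell carries the DNA of every gene, so markers of cell types cannot be absent here and could not check the sort. The 18 enterocyte marker genes had a median of 0.809 EPM per kb of window in Cd73 negative cells, against 0.462 for 8 goblet, 0.347 for the 4 of 8 Paneth markers that were tested, 0.634 for 10 enteroendocrine, 0.629 for 8 tuft, 0.527 for 8 crypt stem cell, 0.4698 for 9 lymphocyte and 0.481 for 10 stromal and endothelial markers, and 0.635 over all genes tested. In Cd73 high against negative cells the median log2 fold changes of these lists were 0.02, 0.06, 0.31, -0.07, 0.23, 0.01, 0.30 and 0.06 in the same order, with 0 genes of any list past the threshold given below. The 18 enterocyte markers ranged from -0.69 to 0.78, and 6 of them had an unadjusted p under 0.05 (edgeR). So did 2 tuft and 2 lymphocyte markers, 0 of the other lists and 1751 of all 19150 genes. The part of these markers in the results on the 6 genes was not tested.

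The 6 genes lay in windows rich in break ends. Their median density in Cd73 negative cells was 1.89 EPM per kb, against 0.635 over all genes tested. These windows differ in length, and Id1, Id2, Id3 and Id4 were among the shortest 4788 (4.16 to 11.9 kb). Of windows of 1 kb on each side of gene starts, fewer were less dense than some of the 6. In negative cells these were 71.2% (Id1), 91.6% (Id2), 94.7% (Id3), 74.8% (Id4), 96.6% (Smad6) and 72.7% (Smad7), with both gene ends used for Id1 and Smad7. Id3 was densest in every library, with 2.72 ± 0.435 (SD, n = 2), 2.65 ± 0.283 and 2.18 ± 0.0880 EPM per kb in negative, mid and high cells. Between 99.6% and 99.9% of all gene windows were less dense than Id3 in each library. Id2 and Id1 followed in negative cells with 2.37 ± 0.130 and 2.28 ± 0.304, whose libraries overlapped, then Smad7 with 1.496 ± 0.155 and Id4 with 1.21 ± 0.167. Smad6 was the least dense of the 6 in every library, at 0.896 ± 0.107, 0.787 ± 0.0545 and 0.745 ± 0.155 EPM per kb in negative, mid and high cells. Even so, 65.5% to 81.8% of all gene windows were less dense than Smad6. The order between Id3 and Smad6 was not fixed: Id2 ranked 2 and 3 in the negative libraries and 5 in Cd73 mid M1 and high M1. No other protein-coding gene lay within 16.5 kb of any of the 6, so the counts are not shared with another such gene, although the windows of Id3 (Gm42329), Id4 (A330033J07Rik) and Smad7 (Gm20544 and Gm41776) hold annotated long noncoding RNA genes.

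**Figure D1:**
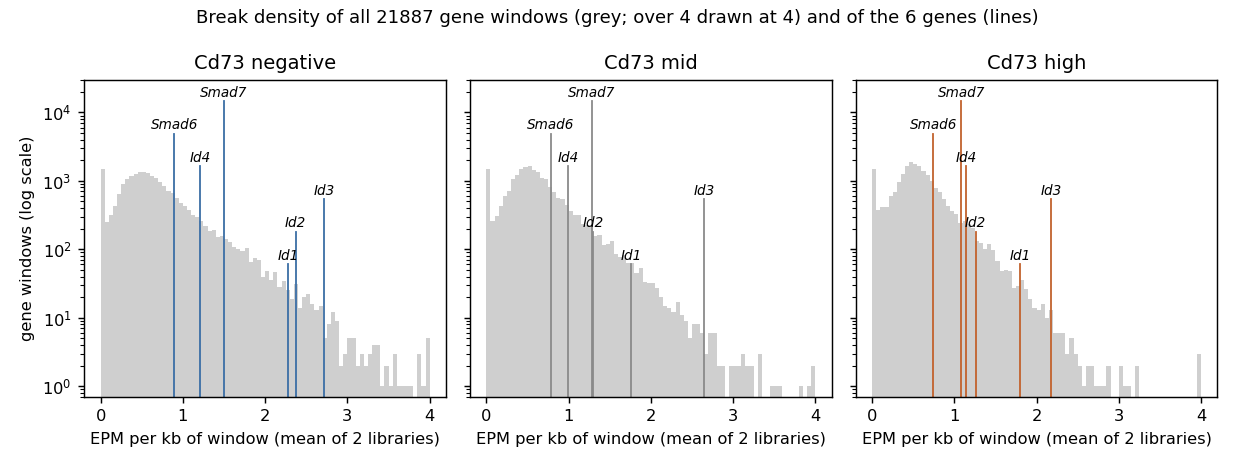
Histogram of the break density of all gene windows (EPM per kb, mean of 2 libraries, gene counts on a log axis) in each Cd73 gate, with a line for each of the 6 genes. Id3 lies at the right edge of the distribution in all gates, with 2.72, 2.65 and 2.18 EPM per kb in negative, mid and high cells, and Smad6 lies nearest to the bulk of genes.

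The question put to each gene was whether its share of break ends differed between the Cd73 gates. In Cd73 high against negative cells, 0 of the 6 genes passed an adjusted p of 0.05 (edgeR quasi-likelihood test, Benjamini-Hochberg adjustment over 19150 genes), and 1 of 6, Id2, had an unadjusted p under 0.05, as did 1751 of all genes. Over all genes 0.00522% passed, a single gene, Cdk5rap2, which is none of the 6 and is named after its value was seen (log2 fold change 0.71, SE 0.14). In Cd73 mid against negative cells 0 of 6 passed and again only Id2 had an unadjusted p under 0.05, while 0% of all genes passed and 700 had an unadjusted p under 0.05. In Cd73 high against mid cells 0 of 6 passed, 0 of 6 had an unadjusted p under 0.05, and 0% of all genes passed, with 842 at an unadjusted p under 0.05. DESeq2 called 0 of the 6 in both comparisons with mid cells and, over all genes, 0, where 55 (mid against negative) and 295 (high against mid) genes had an unadjusted p under 0.05. In high against negative cells DESeq2 called 1 gene, with 843 at an unadjusted p under 0.05, and gave the 6 genes no adjusted p. The comparisons share libraries, so their fold changes are not independent of each other.

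Of the 6 genes, 5 had a negative and 1 a positive log2 fold change in high against negative cells, with a median of -0.18, against -0.00336 over all genes. The same counts held in mid against negative cells, with a median of -0.18 against 0.00198. In high against mid cells 4 were positive and 2 negative, with a median of 0.01. Across all genes the fold change followed density and window length. In the densest 4788 windows of mid cells, which holds Id1, Id2, Id3, Id4 and Smad7, the median log2 fold change in high against negative cells was -0.21, and in the sparsest 4788 it was 0.20. In mid against negative cells these medians were -0.06 and 0.07, in an order set by the mid libraries themselves. The shortest 4788 windows, which hold Id1, Id2, Id3 and Id4, had a median of -0.13 in high against negative cells. The longest 4788, which hold Smad6, had 0.10. The negative median of the 6 thus stood beside negative medians of dense and of short windows in general.

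Groups that did not overlap in counts per 1000000 of the TMM-scaled library (CPM) were counted as well. Id1, Id2, Id3 and Smad7 were lower in both Cd73 high than in both negative libraries, 4 of 6, and 0 of 6 were higher, where 21.5% of all genes were lower and 21.4% higher. Id2, Id4, Smad6 and Smad7 were lower in both mid than in both negative libraries, 4 of 6 with 0 of 6 higher, where 15.9% of all genes were lower and 15.2% higher. Between high and mid cells 1 of 6 was lower, Id3, and 0 higher, where 17.1% and 16.6% of all genes were. With 2 libraries against 2, these counts were not tested.

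**Figure D2:**
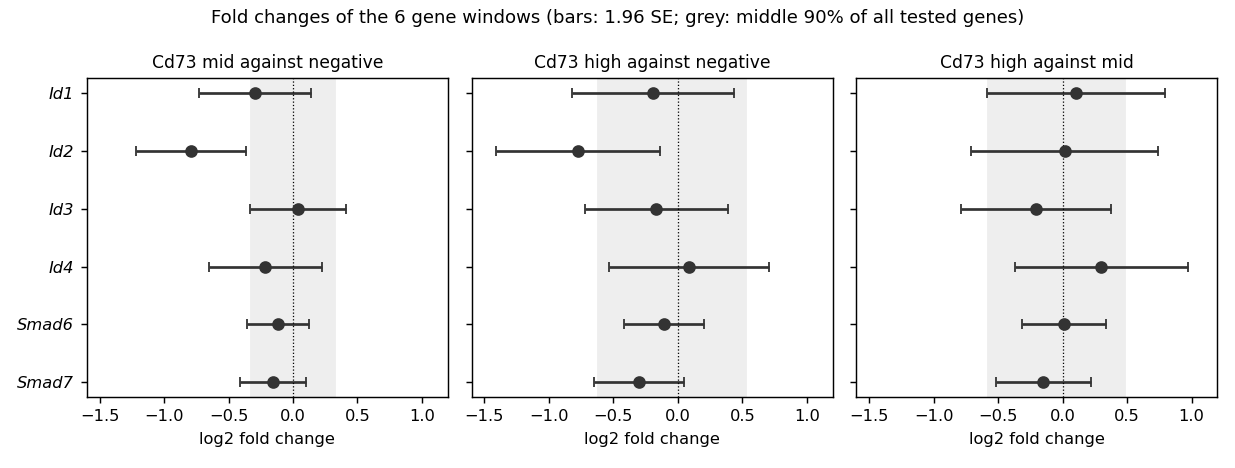
Log2 fold change of each gene window (points) with its 95% interval (bars) in the 3 comparisons, with the middle 90% of all 19150 tested genes in grey. Id2 lies beyond the grey band in both comparisons with Cd73 negative cells, at -0.79 and -0.78, and at 0.02 between high and mid cells.

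Id2, which encodes an inhibitor of basic helix-loop-helix factors, had the largest log2 fold changes of the 6 in both comparisons with negative cells. Its window (gene 15902, chromosome 12, 25093799 to 25096092, minus strand, with 2 kb on each side) held 187 and 195 break ends in the Cd73 negative libraries M1 and M2, 27 and 55 in mid, and 11 and 11 in high. In EPM the negative gate had 14.3 and 15.5, the mid gate 5.67 and 10.7 and the high gate 7.22 and 8.64. All 4 libraries of the mid and high gates were thus below both negative libraries, and the mid and high libraries overlapped. Relative to the pooled negative libraries, the mid libraries had 0.555 times (95% counting interval 0.432 to 0.706) and the high libraries 0.528 times (0.327 to 0.811) the share of break ends.

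The log2 fold change of Id2 was -0.79 (SE 0.22) in mid against negative cells, with 25.3 ± 0.279 CPM (SD, n = 2) and 14.4 ± 5.53 in the mid gate. Its unadjusted p of 0.000279 was the second smallest of 19150 genes, and its adjusted p was 0.998 (edgeR). In high against negative cells it was -0.78 (SE 0.32, unadjusted p = 0.0169, adjusted p = 0.428, edgeR), with 14.9 ± 2.14 CPM in high cells. In high against mid cells it was 0.02 (SE 0.37). None of the differences passed over all genes, and an exact permutation test on EPM (two-sided) gave p = 0.333 for both comparisons with negative cells, the smallest that 2 libraries against 2 allow. The value in mid against negative cells rested in part on a single library: it was -0.47 without Cd73 mid M1 and -1.28 without mid M2. In high against mid cells it was -0.32 without mid M1 and 0.49 without mid M2. In DESeq2 the unadjusted p was 0.0159 in mid and 0.0696 in high against negative cells.

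The densest 500 bases of the Id2 window lay just before its start. In negative cells the 500 bases before the start held 117 break ends, 9.14 ± 0.562 EPM per kb (n = 2), against 4.80 ± 1.44 in mid and 3.7995 ± 3.52 in high cells, where only 24 and 5 break ends lay there. Among 27025 RefSeq promoters, each the 250 bases before a gene start, 98.6% and 97.8% were less dense than that of Id2 in the negative libraries. This stretch, 3.97% of the length of the window, held 98 of its 382 break ends in negative cells (25.7%), 20 of 82 in mid (24.4%) and 3 of 22 in high cells (13.6%). The bases before the start of Id2, Id3 and Smad6 are shown because they held unlike numbers of break ends. They were thus chosen by their values, and differences between the genes were not tested. They are the 250 bases before the start from RefSeq (GRCm38.p6), 5′ to 3′ on the strand of the gene. A capital marks a base at which both Cd73 negative libraries had a break end.
Id2: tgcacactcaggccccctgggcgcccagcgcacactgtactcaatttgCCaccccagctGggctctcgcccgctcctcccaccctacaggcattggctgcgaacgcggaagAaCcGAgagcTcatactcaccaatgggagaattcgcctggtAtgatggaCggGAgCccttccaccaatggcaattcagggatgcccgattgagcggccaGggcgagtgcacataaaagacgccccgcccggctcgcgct
Id3: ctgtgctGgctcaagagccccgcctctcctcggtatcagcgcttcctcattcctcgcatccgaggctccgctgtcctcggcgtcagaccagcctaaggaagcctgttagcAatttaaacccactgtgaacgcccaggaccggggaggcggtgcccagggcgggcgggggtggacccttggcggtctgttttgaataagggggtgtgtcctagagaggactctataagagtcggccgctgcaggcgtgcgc
Smad6: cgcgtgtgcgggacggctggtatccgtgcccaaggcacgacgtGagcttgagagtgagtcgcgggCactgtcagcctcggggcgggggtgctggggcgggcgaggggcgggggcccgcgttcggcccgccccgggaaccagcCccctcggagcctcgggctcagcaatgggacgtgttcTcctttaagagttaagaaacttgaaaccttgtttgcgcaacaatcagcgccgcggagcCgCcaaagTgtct

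In the Id2 sequence (chr12:25096093-25096342, minus strand), 46 bases carried a break end in at least 1 negative library and 14 in both, so the break ends were spread along the stretch. The base 84 before the start had most, with 6 and 5 break ends in the negative libraries, 0 and 2 in mid and 0 and 0 in high. The base 201 before the start had 5 and 5 in the negative gate, 1 and 0 in the mid gate and 0 and 0 in the high gate. The whole stretch held 50 and 48 break ends in the negative libraries, 8 and 12 in mid and 1 and 2 in high, so that the high libraries together had 0.281 times the share of the negative ones (95% counting interval 0.0569 to 0.845) and the mid libraries 0.527 times (0.309 to 0.859). Over all 27025 promoters these ratios were 0.6798 and 0.833, both inside the intervals of Id2. Whether Id2 differed from promoters in general was not tested. The rest of the Id2 window had 0.613 times (0.364 to 0.976) in high and 0.564 times (0.421 to 0.745) in mid cells. In pooled counts the lower share was thus not limited to the bases before the start, by intervals that cover counting error only. By library size without TMM scaling, the median log2 fold change of all genes was -0.15 in high and -0.07 in mid against negative cells. Whether the rest of the Id2 window differed from dense windows in general was not tested. With the 250 bases left out, a choice made after their values were seen, the log2 fold change of Id2 was -0.57 in high and -0.77 in mid against negative cells (adjusted p = 0.669 and 0.999, edgeR). The 95% intervals were -1.27 to 0.13 in high, which includes no change, and -1.25 to -0.29 in mid cells.

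The letters of the promoters were searched on both strands for GGCGCC, a GC-rich motif bound by Smad1 and Smad5, and for CAGAC, the Smad box, which do not overlap in their letters. Id2 held GGCGCC with its first base 231 before the start and no CAGAC. Id4 (chr13:48260866-48261115, plus strand) held GGCGCC with its first base 148 before the start and no CAGAC. Id3 (chr4:136143572-136143821, plus strand) held CAGAC or its complement at 2 places, 167 and 68 bases before the start, and no GGCGCC. Smad6 (chr9:64022060-64022309, minus strand) held neither. Of all 27025 promoters of this length, 9.54% held GGCGCC and 42.1% held CAGAC. The 4 stretches had 18 (Id2), 18 (Id3), 35 (Id4) and 27 (Smad6) CpG dinucleotides, against a median of 6 over all promoters. Of all promoters, 78.4% had fewer than Id2 and Id3, 91.8% fewer than Smad6 and 97.2% fewer than Id4. Promoter sequences of Id1 and Smad7 are not shown.

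**Figure D3:**
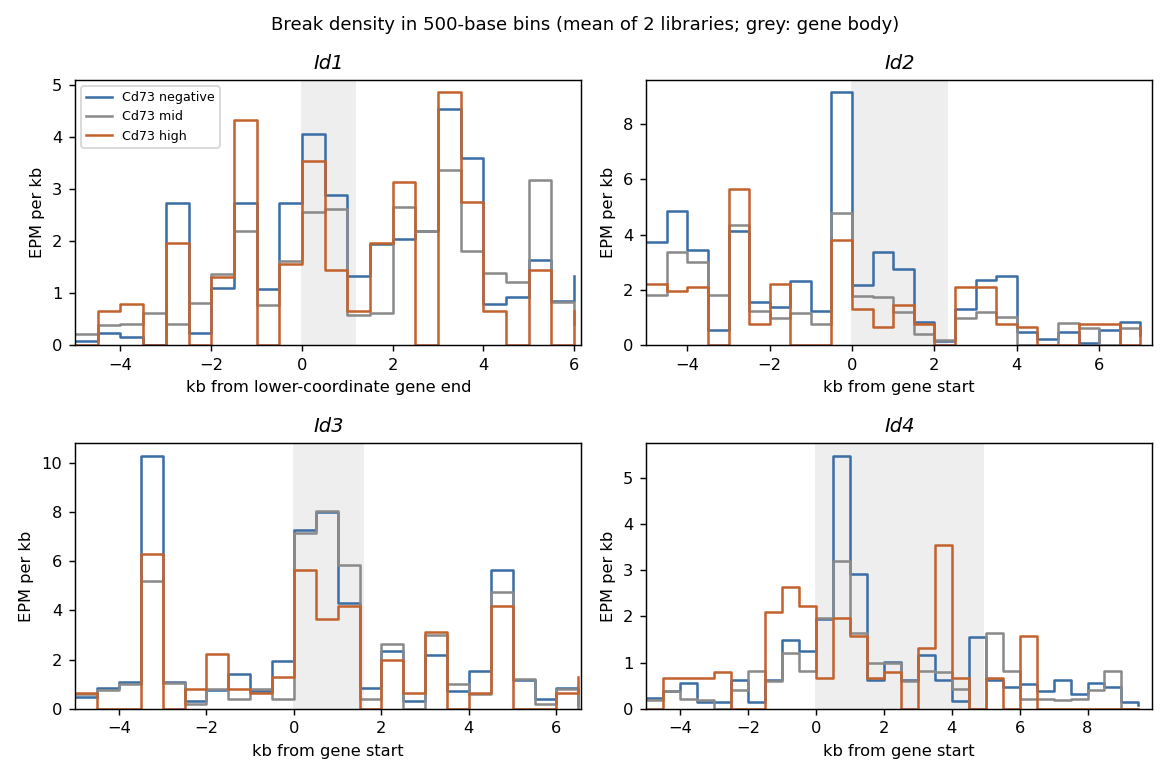
Break density (EPM per kb, mean of 2 libraries) of the 4 Id genes in bins of 500 bases, by distance from the gene start, or for Id1, whose strand the table does not give, from its lower-coordinate end; the gene body is in grey. The bin before the start of Id2 has 9.14, 4.80 and 3.7995 in negative, mid and high cells. In high cells a bin outside the Id2 window, from 3 to 2.5 kb before the start, has 5.64, and Id3 has a bin outside its window, from 3.5 to 3 kb before the start, with 10.3, 5.22 and 6.298.

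Id3, another inhibitor of basic helix-loop-helix factors, was the densest of the 6 windows in every library and had the log2 fold change nearest to 0 of the 6 in mid against negative cells. Its window (gene 15903, chromosome 4, 136143822 to 136145392, plus strand, with 2 kb on each side) held 175 and 212 break ends in the negative gate, 65 and 82 in the mid gate and 19 and 15 in the high gate. In EPM the negative gate had 13.4 and 16.8, the mid gate 13.7 and 15.9 and the high gate 12.5 and 11.8. Negative and mid libraries overlapped, and the high libraries lay below both by a small margin. The log2 fold change was -0.17 (SE 0.28, adjusted p = 0.894, edgeR) in high and 0.04 (SE 0.19, adjusted p = 0.998) in mid against negative cells, with 95% intervals of -0.72 to 0.39 and -0.33 to 0.41. The sign of both turned under other settings of the analysis.

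Most of the break ends in the Id3 window lay in the gene itself. The body, 28.2% of the window, held 64.6% of the break ends in negative cells (Wilson 95% interval 59.7 to 69.2), 72.1% in mid (64.4 to 78.7) and 55.9% in high cells (39.5 to 71.1). The body had 6.22 ± 1.21 EPM per kb (SD, n = 2) in the negative gate, 6.77 ± 1.25 in the mid gate and 4.30 ± 0.423 in the high gate, against 1.21 ± 0.196, 0.606 ± 0.0348 and 1.25 ± 0.0955 in the 2 kb before the start. The 250 bases before the start, shown above beside those of Id2, held only 8 and 6 break ends in the negative gate, 0 and 1 in the mid gate and 2 and 0 in the high gate. Id2 and Id3 thus carried similar totals of break ends in negative cells (382 and 387) at different places relative to the gene. Outside the window, the bin from 3.5 to 3.0 kb before the start of Id3 had 10.3 ± 0.402 EPM per kb in the negative gate, 5.22 ± 0.841 in the mid gate and 6.298 ± 2.24 in the high gate (SD, n = 2).

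Id1, the Id gene most often used as a readout of BMP signalling, had 139 and 162 break ends in the negative gate, 33 and 58 in the mid gate and 14 and 12 in the high gate in its window (gene 15901, chromosome 2, 152736251 to 152737410, with 2 kb on each side). In EPM the negative gate had 10.7 and 12.9, the mid gate 6.94 and 11.2 and the high gate 9.19 and 9.43. The high libraries were alike and below both negative ones, and the mid libraries lay on both sides of them. The log2 fold change was -0.19 (SE 0.32, adjusted p = 0.894, edgeR) in high and -0.30 (SE 0.22, adjusted p = 0.998) in mid against negative cells. The 95% interval of the first, -0.82 to 0.44, holds the value found for Id2, and the difference between the genes was not tested. The value in mid cells was -0.05 without Cd73 mid M1 and -0.64 without mid M2. The body held 29.6% of the window's break ends in negative cells (Wilson 95% interval 24.7 to 35.0) in 22.5% of its length. The density there was 2.996 ± 0.218 EPM per kb in the body, 1.91 ± 0.104 on the lower-coordinate and 2.23 ± 0.553 on the higher-coordinate side.

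Id4, the fourth Id gene, had 127 and 149 break ends in the negative gate, 39 and 49 in the mid gate and 19 and 10 in the high gate (gene 15904, chromosome 13, 48261116 to 48266028, plus strand, with 2 kb on each side). In EPM the negative gate had 9.74 and 11.8, the mid gate 8.20 and 9.496 and the high gate 12.5 and 7.86. The high libraries lay on both sides of all others, so no direction can be read for that gate. The log2 fold change was 0.09 (SE 0.32) in high and -0.21 (SE 0.23) in mid against negative cells (adjusted p = 0.961 and 0.998, edgeR). The first was -0.30 without Cd73 high M1 and 0.33 without high M2. The 500 bases that began 0.5 kb after the start were the densest in negative and mid cells, with 5.48 ± 1.02 EPM per kb in the negative gate, 3.20 ± 0.957 in the mid gate and 1.97 ± 2.79 in the high gate, the last from 3 break ends. In high cells the bin from 3.5 to 4 kb after the start had 3.54 ± 0.564, from 5 break ends.

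**Figure D4:**
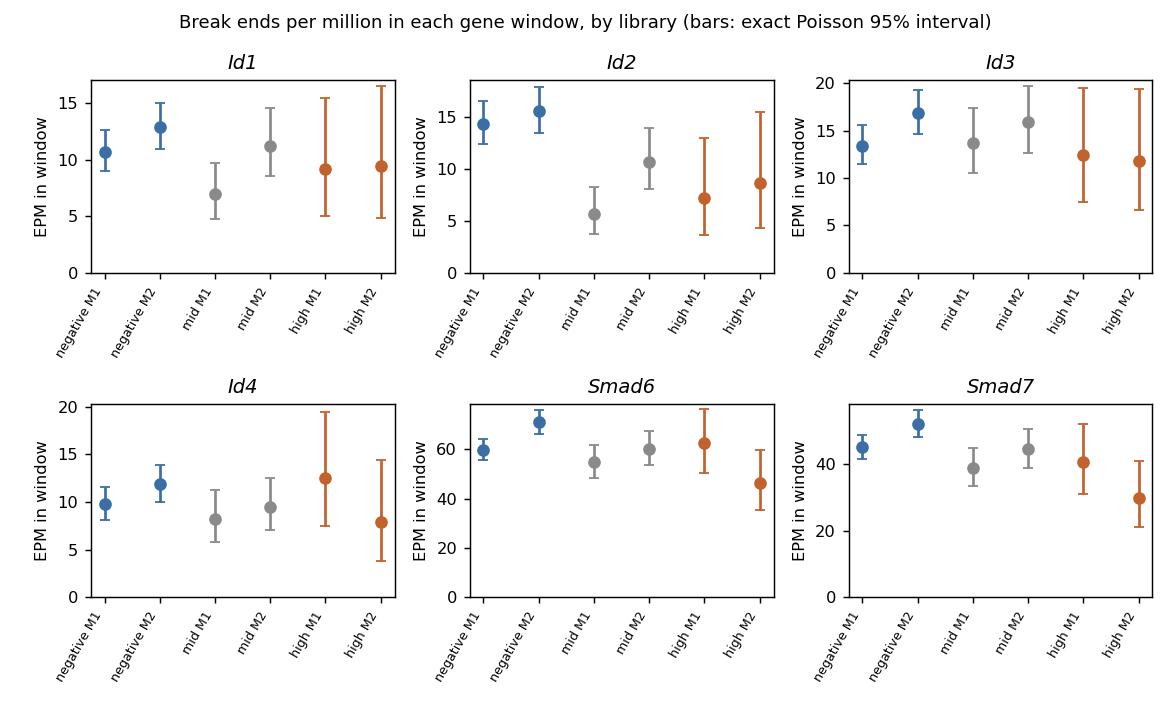
Break ends per 1000000 of the library (EPM) in the window of each gene in each of the 6 libraries, with exact Poisson 95% intervals that cover counting error only. For Id2 the mid and high libraries lie between 5.67 and 10.7, below the negative libraries at 14.3 and 15.5; for Id3 the 6 libraries lie between 11.8 and 16.8, and for Smad7 the lowest is Cd73 high M2 at 29.9.

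Smad7, an inhibitory Smad that acts on BMP and TGF-beta receptors, is longer and was better covered. Its window (gene 17131, chromosome 18, 75367365 to 75395935, with 2 kb on each side) held 589 and 658 break ends in the negative gate, 185 and 230 in the mid gate and 62 and 38 in the high gate. In EPM the negative gate had 45.2 and 52.3, the mid gate 38.9 and 44.6 and the high gate 40.7 and 29.9. All mid and high libraries were below both negative ones, by less than the distance between the 2 negative libraries for both mid libraries and for Cd73 high M1. The log2 fold change was -0.30 (SE 0.18, adjusted p = 0.612, edgeR) in high and -0.15 (SE 0.13, adjusted p = 0.998) in mid against negative cells. The first was -0.14 without Cd73 high M2 and -0.55 without high M1. Within the window, 3 bins of 500 bases near the lower-coordinate end were densest, with 6.43 ± 2.59, 7.11 ± 0.952 and 6.17 ± 0.487 EPM per kb in negative cells, beginning 1 kb before and 1.5 and 3 kb after that end.

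Smad6, which inhibits BMP receptors and Smad1 signalling more narrowly, is the longest of the 6 (gene 17130, chromosome 9, 63953076 to 64022085, minus strand). Its window held 781 and 893 break ends in the negative gate, 260 and 311 in the mid gate and 95 and 59 in the high gate. In EPM the negative gate had 59.9 and 71.0, the mid gate 54.6 and 60.3 and the high gate 62.4 and 46.4, so that high and negative libraries overlapped, and Cd73 mid M2 lay just above negative M1 in EPM but just below it in CPM. The log2 fold change was -0.11 (SE 0.16) in high and -0.12 (SE 0.12) in mid against negative cells (adjusted p = 0.877 and 0.998, edgeR), with 95% intervals of -0.42 to 0.20 and -0.36 to 0.13. Without Cd73 high M1 the value in high cells was -0.34, and without high M2 it was 0.05.

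At the start of Smad6 the break ends were dense in every gate. The window of 1 kb on each side of the start had 4.98 ± 0.595 EPM per kb in the negative gate, 4.41 ± 0.745 in the mid gate and 4.36 ± 1.72 in the high gate (SD, n = 2), denser than 96.6%, 97.5% and 98.7% of all start windows. The 250 bases before its start in the promoter table, 26 of which lie inside the gene body as annotated, held 25 and 21 break ends in the negative gate, 9 and 11 in the mid gate and 8 and 1 in the high gate. The base 71 before the start alone had 5 and 8, 3 and 6, and 1 and 0. Unlike at Id2, the share of break ends in this stretch was not lower in the other gates as measured: it was 1.12 times the negative share in mid (95% counting interval 0.6295 to 1.94) and 1.79 times in high cells (0.772 to 3.71). The interval of the high gate for Smad6 overlaps that for Id2 (0.0569 to 0.845), and the difference between the genes was not tested. The 2 high libraries differed widely, with 8 and 1 break ends.

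Each window was set against the 100 kb on each side of it, which hold other genes and intergenic DNA. The Id2 window was 4.58 ± 0.403 times as dense as its flanks in negative cells (SD, n = 2), 2.47 ± 1.11 in mid and 2.37 ± 0.673 in high cells. The flanks of Id2 themselves had 0.518 ± 0.0172, 0.528 ± 0.0103 and 0.545 ± 0.0879 EPM per kb in negative, mid and high cells, with a log2 ratio of 0.07 between high and negative, where the window had -0.91 without TMM scaling. The lower share of the Id2 window in mid and high cells was thus not matched in its flanks. The flanks were much sparser than the window, and across all genes dense windows had lower fold changes than sparse ones. With an offset for window density, the log2 fold change of Id2 was -0.53 in high and -0.68 in mid against negative cells (unadjusted p = 0.0946 and 0.000591, edgeR). That of Smad7 was then -0.10 in high against negative cells. The Smad7 window was 2.19 ± 0.0431 times as dense as its flanks in the negative gate, 1.81 ± 0.0167 in the mid gate and 1.55 ± 0.359 in the high gate, and its flanks had a log2 ratio of 0.03 between high and negative cells. For Id3 the ratio was 3.48 ± 0.205, 3.69 ± 0.0346 and 3.42 ± 0.203, and the flanks had a log2 ratio of -0.29 between high and negative cells, near that of the window at -0.32. For Id1 the ratio was 2.78 ± 0.0199, 2.25 ± 0.578 and 2.43 ± 0.141 in negative, mid and high cells. For Id4 it was 3.65 ± 0.799, 2.77 ± 0.462 and 2.70 ± 0.335, and for Smad6 1.44 ± 0.0653, 1.28 ± 0.0794 and 1.30 ± 0.0626. Over the libraries of these genes it ranged from 1.22 (Smad6) to 4.21 (Id4). No test was made on these ratios.

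**Figure D5:**
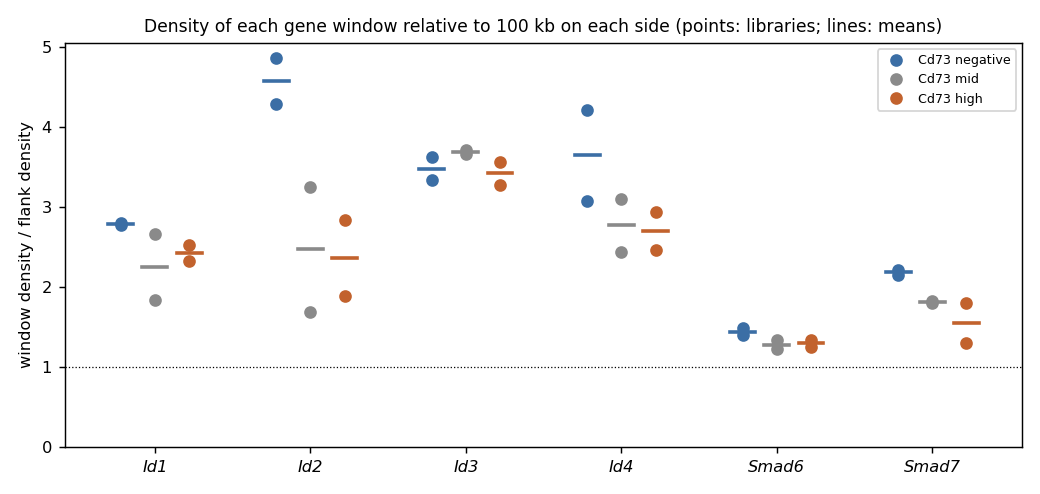
Density of each gene window divided by the density of the 100 kb on each side, for each library (points) with the mean of the 2 libraries of a gate (lines); the dotted line is equal density. Every point lies above 1, and the Id2 means are 4.58, 2.47 and 2.37 in negative, mid and high cells.

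Repeated break ends at the same position were counted in each window. The most break ends at a position of any of the 6 windows was 12, in Cd73 negative M2 (Id3, Id4 and Smad7). Break ends per position ranged from 1.30 (Smad6, M1) to 1.56 (Id3, M2) in negative cells, above the medians of 1.23 and 1.25 over all gene windows. In the high libraries Id2 had 11 break ends at 11 positions in each, while Id1 had 12 break ends at 9 positions in Cd73 high M2, of which 4 were at a single position. With each position counted once, the log2 fold change of Id2 was -0.52 in high and -0.64 in mid against negative cells (unadjusted p = 0.0996 and 0.00153, edgeR), and that of Id3 in high against negative cells was 0.12. The median over all windows was also lower in the shallower libraries, down to 1.01 in Cd73 high M2, and its part in these differences was not tested.

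The other genes of the pathway were read from lists that held 12 ligands, 8 receptors, 9 signal transducers, 12 antagonists and 12 further BMP targets, with 8 basic helix-loop-helix partners of Id proteins and 10 genes of the TGF-beta branch. None of these genes passed in any of the 3 comparisons (edgeR, adjusted over all genes). In high against negative cells 3 further targets, 2 receptors, 1 antagonist and 1 partner had an unadjusted p under 0.05, against 1751 of all 19150 genes. The further BMP targets had a median density of 1.79 EPM per kb in negative cells, near the 1.89 of the 6 genes, while the lists of ligands, receptors, transducers and antagonists had 0.683, 0.667, 0.591 and 0.757.

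Of the 12 further targets, 9 were negative and 3 positive in high against negative cells, with a median log2 fold change of -0.21, against -0.00336 over all genes. The densest 4788 windows of mid cells also had a median of -0.21, and the list was dense (1.79 EPM per kb in negative cells). Whether the list differed from dense windows in general was not tested. Hes1, a repressor best known as a Notch target, had -0.92 (SE 0.26, unadjusted p = 0.000427, adjusted p = 0.255, edgeR), with 41.9 ± 7.28 CPM in the negative and 22.03 ± 1.59 in the high gate (SD, n = 2). Tlx2, a homeobox gene, had -1.18 (SE 0.37, adjusted p = 0.278), with 22.9 ± 6.51 and 10.4 ± 4.33 CPM. In mid against negative cells the list had 8 negative and 4 positive members and a median of -0.20. The densest 4788 windows had -0.06 there, in an order set by the mid libraries themselves.

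The ligands, receptors, signal transducers and antagonists had medians nearer to 0 than the targets in high against negative cells. They were also less dense than the targets, and differences between the lists were not tested. The ligands had a median of 0.05 (7 positive, 5 negative), with Bmp2 at -0.48 (SE 0.25) and Gdf2 at 0.84 (SE 0.49). The receptors had 0.05 (5 positive, 3 negative), with the type II activin receptor gene Acvr2a at -0.41 (SE 0.17) and the type I receptor gene Bmpr1b at 0.30 (SE 0.14). The signal transducers had 0.000824 (5 positive, 4 negative), with the transcription factor gene Runx2 at 0.25 (SE 0.14) and Smad1 at -0.31 (SE 0.17). The antagonists had 0.11 (7 positive, 5 negative), with Bmper, which binds BMPs outside the cell, at 0.40 (SE 0.14). The partners of Id proteins had -0.15 (2 positive, 6 negative), with Myod1, the muscle regulator, at -1.45 (SE 0.55) and Tcf4 at 0.20 (SE 0.14). The TGF-beta branch had -0.08 (4 positive, 6 negative), with the ligand gene Tgfb1 at -0.27 (SE 0.22) and the repressor gene Ski at -0.17 (SE 0.16). Nt5e, the gene of the sorted marker, had 0.71 (SE 0.18, adjusted p = 0.215, edgeR).

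The genes whose CPM ran most alike to each of the 6 across the 6 libraries were found by Pearson correlation of log2 CPM, a description over 6 libraries that share depth and gate, chosen from 19144 genes. For Id2 these were Nifk (r = 0.988) and Gm45935 (0.982), and Nifk had 23.5 and 22.8 CPM in the negative gate, 14.4 and 19.3 in the mid gate and 17.1 and 19.4 in the high gate. For Id1 they were Tnfrsf12a (0.995) and Slc66a2 (0.992), for Id3 Apba3 (0.994) and Tlx1 (0.993), for Id4 Tpgs2 (0.989) and Card10 (0.988), for Smad6 Gm3336 (0.998) and Krtap3-3 (0.997), and for Smad7 Ascl4 (0.997) and Zfp14 (0.996). Between 25 (Id2) and 239 (Smad7) genes had r over 0.95. Some of the genes named were sparse: in Cd73 high M2 Krtap3-3 and Ascl4 had 2.99 CPM each, where the 10 break ends of Id4 made 14.9.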

How the data were processed

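In the deposited files each line gives a position and a count of break ends, whole numbers without normalization or strand, for each library alone. Reads were aligned with BWA to GRCm38, per the submitters' processing notes; the sources used here do not give versions, mapping filters or whether molecular identifiers were counted. Intervals and floors therefore cover counting error only.

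The authors' counts were summed over 21887 protein-coding gene bodies with 2 kb on each side (RefSeq, GRCm38.p6). The strand was read from the RefSeq promoter table, for 17492 genes. For the 4395 genes without a strand, among them Id1 and Smad7, windows at gene starts were laid around both gene ends. A single model of 6 libraries in 3 groups was fitted to the counts by quasi-likelihood in edgeR 4.0.16 under R 4.3.3, after filterByExpr and TMM scaling. Benjamini-Hochberg adjustment ran over 19150 genes, and an adjusted p under 0.05 was called. SE are the log2 fold change divided by the square root of F. The fit was also run on simulated counts, with the same spread for all genes and changes in the high gate alone. The outcome is not reported here, so the power at the counts of the Id genes is not given. DESeq2 1.42.0 was an alternative. Sums and intervals came from Python 3.11.15 with scipy 1.17.1, pandas 2.3.3 and numpy 2.4.6; figures from matplotlib 3.10.9.

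The 6 genes and the lists were chosen with earlier results of these data known. The rule named the 6 genes, the 2 members of each pathway list with the smallest p in high against negative cells, Nt5e, and 2 genes most alike to each member; for marker lists only counts are given, and 1 gene that the rule names is not reported here. The alternative without the 250 bases before the start was added after the Id2 values were seen. The other alternatives changed scaling, filter, window, depth, repeated positions, offsets for length or density, the replicate block and the libraries used.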

Additional observations from a re-analysis of the deposited data

How the results depend on the processing

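None of the 6 genes was called in any comparison under any of the 15 alternatives or with any library left out (adjusted p from 0.177 upwards), and the log2 fold change of Id2 against negative cells was negative in all of them. Over the alternatives it lay between -1.004 and -0.52 in high and between -0.88 and -0.49 in mid against negative cells, and with a library left out between -0.93 and -0.63 and between -1.28 and -0.47. DESeq2 gave no adjusted p to the 6 genes in high against negative cells. The labels give the gates the same numbers, M1 and M2. Across 19150 genes the differences between M1 and M2 correlated at 0.35 between negative and mid. With the high gate, whose libraries were the shallowest, they correlated at -0.04 (negative) and -0.03 (mid). Whether M1 and M2 pair the gates cannot be told from these values. With the replicate block 4 genes were called in high against negative cells and 0 in the others. Genes with an unadjusted p under 0.05 (edgeR) went from 700 to 1719 in mid against negative cells with this block. They went from 1751 to 2139 in high against negative and from 842 to 971 in high against mid cells. Id2 was then at -0.77 in high and -0.79 in mid against negative cells (unadjusted p = 0.0153 and 5.11e-05, adjusted p = 0.304 and 0.196, edgeR).

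The count of all genes called in high against negative cells, 1, was 0 with library size in place of TMM, 0 at gene starts, 6 with the length offset, 5 with the density offset and between 0 and 2 with a library left out (0 without negative M2, high M1 or high M2). In mid against negative cells it was 1 with each position counted once. Library size scaling moved the median of all genes from -0.00336 to -0.15 in high and from 0.00198 to -0.07 in mid against negative cells.

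Signs turned as follows, the cause not tested. For genes without a strand, among them Id1 and Smad7, the gene start setting counted 1 kb around both gene ends. In high against negative cells, Id1 had 0.035 thinned to 1272771 break ends and 0.093 with the density offset; Id3 had 0.12 with positions counted once, 0.10 thinned and 0.15 with the density offset; Id4 had -0.061 with library size, -0.296 in the body, -0.074 with 1 kb and -0.013 with 5 kb on each side and -0.25 thinned; Smad6 had 0.31 and Smad7 0.038 at gene starts. In mid against negative cells, Id3 had -0.031 with library size and -0.16 with 5 kb; Smad6 had 0.053 and Smad7 0.30 at gene starts; Smad7 had 0.038 with positions counted once. In high against mid cells, Id1 had -0.065 with positions counted once; Id2 had -0.063 with library size, -0.21 in the body, -0.040 with 1 kb, -0.13 with 5 kb and -0.44 at the gene start; Id3 had 0.085 with positions counted once; Smad6 had -0.067 with library size, -0.0087 in the body, -0.030 without the 250 bases before the start and -0.012 with the length offset. With a library left out, values ranged from -0.298 to 0.33 (Id4) and -0.34 to 0.050 (Smad6) in high against negative, from -0.077 to 0.16 (Id3) in mid against negative, and from -0.15 to 0.44 (Id1), -0.32 to 0.49 (Id2), -0.078 to 0.55 (Id4), -0.22 to 0.17 (Smad6) and -0.39 to 0.018 (Smad7) in high against mid cells.

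Depth limits the Id genes most: the Cd73 high libraries held 10 to 19 break ends in each Id window, and a count of 0 there allows up to 1.97 EPM in M1 and 2.36 in M2.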

Other observations

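Single bases broken in several libraries were counted in each window. Of 257 positions with a break end in the Id3 window, 75 had one in 2 or more libraries and 36 in 3 or more, and at least 1 position had a break end in all 6. Smad7 also held a position found in all 6 libraries, and 229 of its 1004 positions were found in 2 or more. Id2 had 61 of 273 positions in 2 or more libraries and none in more than 4. The 2 Cd73 negative libraries shared 38.3% and 32.4% of their positions in the Id3 window, 31.3% and 31.5% in Id2, 28.8% and 27.0% in Smad7, and between 22.7% and 27.9% in Id1, Id4 and Smad6. No test was made on these shares. They were not counted over all gene windows, and Id3 was also the densest of the 6, so they cannot be read as particular to these genes.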
